A study of Mus musculus with 35 samples.

Results

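The proteasome subunit genes were taken as all gene symbols made of Psm, 1 letter from a to g, a number and at most 1 further letter. They numbered 49 of the 32285 genes in each of the matrices of the lactate and technique experiments and 49 of the 35624 symbols in the table of the AZD3965 experiment. By their textbook roles they were put into 7 classes: 8 alpha and 8 beta subunits of the 20S core, the 3 immunoproteasome subunits Psmb8, Psmb9 and Psmb10, 6 ATPases and 11 other subunits of the 19S regulatory particle, 6 activators and inhibitors, and 7 assembly chaperones.

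All 35 cells were labelled as primary macrophages from the abdominal cavity of male C57BL/6 mice aged 6 months, and each cell was its own SMART-seq2 library made with 20 PCR cycles. In the lactate experiment, 8 cells received lactate at 10 mM for 72 h and 8 were controls. In the AZD3965 experiment, 5 cells received lactate and 5 received lactate with 300 nM AZD3965, an inhibitor of the lactate transporter MCT1, so the reference cells there were lactate-treated too and no cell had AZD3965 alone. These 26 cells and 4 lactate-treated cells of the technique experiment went through scMeT-seq, in which a little cytoplasm was drawn off for the metabolome before lysis, whereas 3 lactate-treated and 2 control cells were lysed whole. The macrophages had been kept in culture, where non-adherent cells were washed away, and the animal or culture behind a cell is not named in the labels or methods. Each group was therefore 1 sample, no test over cells was run and no difference had a replicate check. Intervals are exact 95% intervals and cover counting error alone. Copies made by PCR could not be told from separate transcripts, so the intervals of every experiment may be too narrow. In the AZD3965 table a value of 2 was also more frequent than a value of 1 (6215 against 1914 values). Ranges over cells are descriptions.

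The proteasome degrades proteins that carry ubiquitin chains. Its 20S core is a barrel of alpha rings, which gate the entry, around beta rings, in which Psmb5, Psmb6 and Psmb7 encode the chymotrypsin-like, caspase-like and trypsin-like proteases. The 19S particle binds ubiquitin chains, removes them and feeds the unfolded protein into the core with its ATPase ring. In cells of the immune system, and in others after interferon gamma, Psmb8, Psmb9 and Psmb10 take the places of Psmb5, Psmb6 and Psmb7 in new cores. The resulting immunoproteasome yields peptides that fit MHC class I molecules well, and Psme1 and Psme2 encode the interferon-inducible activator ring that can cap it.

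The results turn most on the immunoproteasome genes, so the promoter windows of Psmb9, Psmb8 and Psmb10 are shown here with those of Psmb5, the standard counterpart of Psmb8, and Psme1, a gene of the activator ring. Each window runs from 250 bases before to 50 bases after a RefSeq start site on GRCm38.p6, 5′ to 3′ on the strand of the gene: chr17:34187281-34187580 (minus strand) for Psmb9, chr17:34197945-34198244 (plus) for Psmb8, chr8:105938343-105938642 (minus) for Psmb10, chr14:54617946-54618245 (minus) for Psmb5 and chr14:55578244-55578543 (plus) for Psme1. Capitals mark matches, on either strand, to the interferon-stimulated response element (ISRE, GAAANNGAAA), the gamma-activated site (GAS, TTCNNNGAA) or the antioxidant response element (ARE, TGACNNNGC), the last being bound by factors such as NRF1 that raise proteasome genes.
Psmb9: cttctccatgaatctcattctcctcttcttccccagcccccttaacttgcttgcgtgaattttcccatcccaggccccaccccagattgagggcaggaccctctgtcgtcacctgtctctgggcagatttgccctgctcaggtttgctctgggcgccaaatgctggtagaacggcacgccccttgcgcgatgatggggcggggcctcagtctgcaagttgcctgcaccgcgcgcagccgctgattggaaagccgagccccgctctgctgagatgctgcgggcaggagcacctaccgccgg
Psmb8: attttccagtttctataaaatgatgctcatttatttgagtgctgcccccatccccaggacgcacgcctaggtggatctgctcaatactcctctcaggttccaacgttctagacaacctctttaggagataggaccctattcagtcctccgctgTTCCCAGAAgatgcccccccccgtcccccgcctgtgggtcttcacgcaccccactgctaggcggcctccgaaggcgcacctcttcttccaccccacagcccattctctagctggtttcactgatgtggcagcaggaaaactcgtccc
Psmb10: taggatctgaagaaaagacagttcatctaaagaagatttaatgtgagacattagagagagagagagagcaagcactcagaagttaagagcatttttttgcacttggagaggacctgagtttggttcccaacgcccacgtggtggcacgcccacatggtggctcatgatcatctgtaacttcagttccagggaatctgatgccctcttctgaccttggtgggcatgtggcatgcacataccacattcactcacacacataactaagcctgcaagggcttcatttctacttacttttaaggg
Psmb5: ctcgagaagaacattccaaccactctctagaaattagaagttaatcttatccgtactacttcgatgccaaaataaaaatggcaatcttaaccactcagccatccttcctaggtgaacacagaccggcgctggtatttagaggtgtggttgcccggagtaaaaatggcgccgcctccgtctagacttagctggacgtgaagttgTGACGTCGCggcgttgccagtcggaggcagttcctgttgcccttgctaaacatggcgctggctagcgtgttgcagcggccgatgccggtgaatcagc
Psme1: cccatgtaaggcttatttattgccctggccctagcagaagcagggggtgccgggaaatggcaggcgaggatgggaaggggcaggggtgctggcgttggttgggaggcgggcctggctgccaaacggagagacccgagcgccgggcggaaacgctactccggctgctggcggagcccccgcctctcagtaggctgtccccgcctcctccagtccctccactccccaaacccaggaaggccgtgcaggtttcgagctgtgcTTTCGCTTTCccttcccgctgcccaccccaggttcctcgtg

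In the GENCODE M21 annotation, Psmb8 (ENSMUSG00000024338) lies at chr17:34197721-34201454 on the plus strand and Psmb9 (ENSMUSG00000096727) at chr17:34181987-34187764 on the minus strand, both in the MHC region. Psmb10 (ENSMUSG00000031897) lies at chr8:105935735-105938444 on the minus strand, Psmb5 (ENSMUSG00000022193) at chr14:54614119-54618022 on the minus strand and Psme1 at chr14:55578123-55581529 on the plus strand. All of these RefSeq start sites lie inside the gene spans. The windows of Psmb9, Psmb8 and Psme1 fall wholly within the annotated gene, whereas those of Psmb10 and Psmb5 run across its 5′ end.

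The Psmb8 window held 1 GAS match, the Psmb5 window 1 ARE match and the Psme1 window 1 ISRE match, and the Psmb9 and Psmb10 windows held none of the 3. Psmb9 and Tap1, a peptide transporter gene that runs the other way, shared 275 bases of their windows. RefSeq windows were found for 41 of the 49 members. The ISRE letters were present in the windows of 5 members (Psmb3, Psmd4, Psmd9, Psme1 and Psmg4), or 12.2% of the 41, against 3.44% of all 32851 windows. The GAS letters were in those of Psmb8, Psmd2 and Psmg1 (7.32%) against 8.3% of all windows, and the ARE letters in those of Psmb5, Psmb6, Psmc6, Psmd12, Psmd9 and Psme4 (14.6%) against 12.4%. CCAAT, the box of the factor NF-Y, occurred in the windows of 14 members (34.1%) and in 37.4% of all windows. The 41 members had 44 windows, and their shares count genes, whereas the shares of all windows count windows. In the member windows the only matches that overlapped were a pair of CCAAT matches of Psmd14 on opposite strands, and a match describes letters only.

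Total counts per cell ran from 269393 to 459859 in the lactate experiment, from 494520 to 851417 in the technique experiment and from 58444 to 175450 in the AZD3965 experiment. The summed level of 18 macrophage markers was 40421 CPM (counts scaled to the same total in every cell) or more in 34 cells. The remaining cell, the control CTL32, stood at 2638 CPM beside 60583 CPM of fibroblast markers such as collagen genes, which goes against its label. Fibroblast or mesothelial markers also reached 10% of the macrophage markers in CTL30, CTL35, Lactic29 and the lactate+AZD cell W14, and results are given without these 5 cells where they move. The control CTL27 and the lactate cell Lactic31 had counts for only 3392 and 5010 genes, and for 28 and 32 members.

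Together the 49 members took between 2981 and 6583 CPM of a cell, and in the lactate experiment their sum varied less than any single member counted there. The coefficient of variation over cells was 8.32% for the sum in the 8 controls and 21.1% in the 8 lactate cells, whereas that of single members was at least 25.7 and 26.7%, with medians of 63.7 and 67.0%. In the technique experiment, with 2 to 4 cells a group, some members varied less than the sum. A typical member was thus found at widely different levels in the cells of 1 group, and transcripts missed in a cell were not told apart from lower levels. A sum over many sparsely counted genes varies less than its parts by averaging, so the smaller variation need not be a trait of these genes. In the lactate matrix 17 members had a count in each of the 16 cells, in the technique matrix 33 in each of the 9 cells, and in the AZD3965 experiment 17 in each of the 10 cells. Psma8, the alpha subunit of testis, was at 0 in all but 2 of the 16 cells of the lactate experiment and had 46 counts in the control CTL28. Psmb11, the beta subunit of thymic epithelium, had no count in any of the 35 cells. The assembly chaperones Psmg1, Psmg2, Psmg3 and Psmg4 had counts in 10, 8, 7 and 10 of the 16 cells of the lactate experiment, as the map of levels by cell shows.

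**Figure D1:**
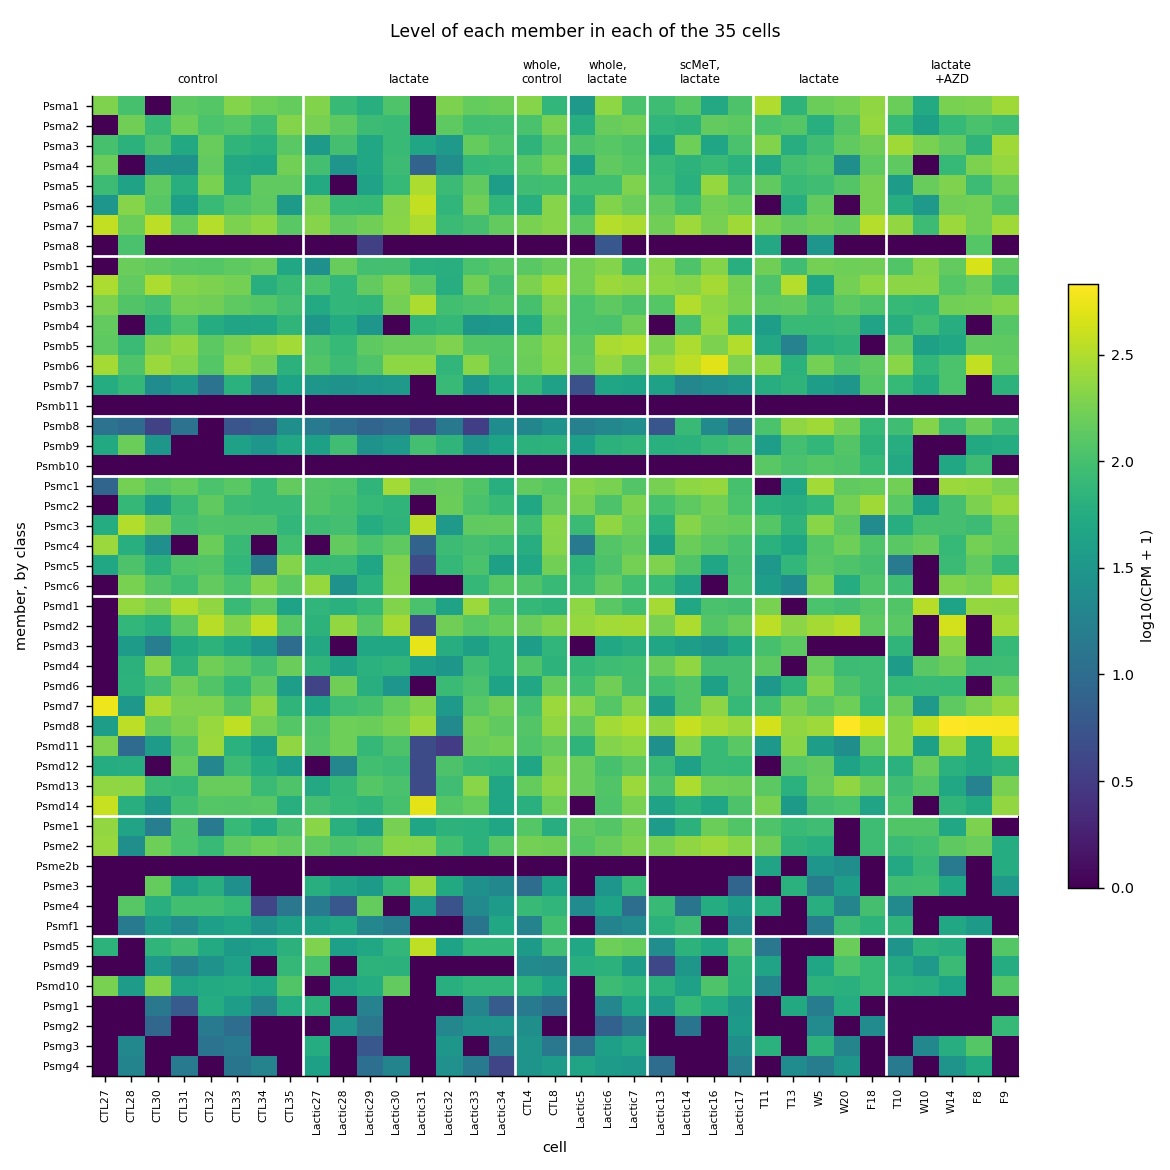
Level of each of the 49 members (rows, by class, white lines between classes) in each of the 35 cells (columns, by group), as log10(CPM + 1). The core and 19S members are filled in most cells, Psmb11 is empty throughout, and Psmb10 and Psme2b are empty in the 25 cells of the lactate and technique matrices and present in the AZD3965 table.

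Per kilobase of exons, the core subunits Psmb5 and Psmb2 were among the 3 highest members in each group of the matrices. Psmb5 led in both groups of the lactate experiment, at 199 CPM per kilobase in controls and 146 in lactate cells, and in the 3 technique groups, at 203, 287 and 277. In the AZD3965 table, by contrast, the highest values were those of Psmb2 (149 CPM per kilobase) and Psmd8, a subunit of the 19S lid (135), in lactate cells, and of Psmd8 (153) and Psmb2 (140) with AZD3965. Psmb5 there stood at 46.3 and 99.5 CPM per kilobase. The tables were made apart, so these levels are set side by side and not compared.

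Psmb10, Psmb11 and Psme2b were listed at 0 in all 25 cells of the matrices. Psmb10 had 98 counts in 8 of the 10 cells of the shallower AZD3965 table, and Psmb8 had 0 to 8 counts a cell in the lactate matrix against 7 to 40 in the AZD3965 table. Of 2785 symbols with counts in 8 or more of the 10 AZD3965 cells, 62 (2.23%) were at 0 in all 25 matrix cells, among them B2m, a gene that nearly every cell uses. A listed 0 of Psmb10 in the matrices is therefore no measure of absence, and immunoproteasome shares cannot be set against each other across tables. Psmb8 shared 498 exon bases with the antisense gene Gm20496, Psmb9 212 with Tap1, Psmb7 405 with Nek6, Psmd13 342 with Sirt3 and Psmd9 1849 with Gm26745, and whether counting used strand is not given in the sources used here, so reads there cannot be assigned to 1 gene with certainty.

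With AZD3965, the immunoproteasome genes were lower in sum, whereas the sums of the other 6 classes lay above 0 by CPM. The comparison asks what blocking MCT1 adds to lactate treatment. Psmb8, Psmb9 and Psmb10 together stood at 184 CPM in the 5 lactate+AZD cells against 368 CPM in the 5 lactate cells, so that the log2 ratio was -0.998 (95% interval -1.34 to -0.67) and 3 of 3 genes lay below 0. The other core subunits stood at 0.13 (-0.03 to 0.30) for the alpha and 0.20 (0.02 to 0.38) for the beta class. TMM scaling, which sets most genes equal, shifted every log2 ratio here by -0.16, to -1.16 for the immunoproteasome, 0.04 for the beta class, 0.05 for the ATPases and 0.18 for the activators, but below 0 for the alpha class (-0.03), the other 19S subunits (-0.05) and the chaperones (-0.06). Per cell, the immunoproteasome sum was 270.2, 427, 465, 401 and 221 CPM in the lactate cells T11, T13, W5, W20 and F18, and 198, 200.3, 134, 291 and 144 CPM in the lactate+AZD cells T10, W10, W14, F8 and F9. The 3 highest cells were lactate cells and the 4 lowest were lactate+AZD cells, but the ranges overlapped because F8 lay above F18 and T11. The summed macrophage markers ran from 70834 to 132176 CPM in the lactate cells and from 40421 to 102629 CPM with AZD3965, and fibroblast markers from 1505 to 9697 and from 155 to 31483 CPM. The part of either in the result was not tested beyond leaving out cells as given below.

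Psmb10, the trypsin-like subunit of the immunoproteasome, stood at 126, 103, 119.9, 111 and 77.3 CPM in T11, T13, W5, W20 and F18. With AZD3965 it was at 49.6, 0, 49.5, 85.6 and 0 CPM in T10, W10, W14, F8 and F9. Every lactate cell but F18 thus lay above every lactate+AZD cell, and the log2 ratio of the sums was -1.75 (-2.55 to -1.01), from 79 counts against 19.

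Psmb9, the counterpart of Psmb6, stood at 37.7, 96.9, 74.9, 117 and 66.3 CPM in the same lactate cells. With AZD3965 it was at 56.7, 0, 0, 51.3 and 55.3 CPM. The lactate cell T11 lay below 3 lactate+AZD cells and the other 4 lactate cells lay above all of them, with a log2 ratio of -1.55 (-2.45 to -0.73), from 58 counts against 16, or -2.15 without T10.

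Psmb8, the chymotrypsin-like counterpart, had the most counts of the 3 in both groups, although per kilobase Psmb10 was higher in the lactate cells (64.3 against 52.5 CPM per kilobase). It stood at 107, 228, 269.8, 173 and 77.3 CPM without and at 92.1, 200.3, 84.9, 154 and 88.5 CPM with AZD3965. The groups overlapped widely and the log2 ratio was -0.52 (-0.96 to -0.09).

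The standard counterparts had ratios above 0, although under the TMM shift those of Psmb6 and Psmb7 came close to 0. Psmb5 stood at 50.3, 17.1, 60.0, 67.9 and 0 CPM in the lactate cells and at 135, 40.1, 49.5, 137 and 133 CPM with AZD3965. T10, F8 and F9 lay above all lactate cells, W10 and W14 lay among them, and the log2 ratio was 1.10 (0.43 to 1.80). Psmb6 (0.20, -0.22 to 0.63) and Psmb7 (0.24, -0.42 to 0.90) had intervals on both sides of 0, and each was at -0.04 with 1 cell left out (F8 and W14).

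The share of immunoproteasome counts among the 6 catalytic genes sets these subunits against each other within a cell, and does not depend on how cells are scaled. It was 60.9% (exact Clopper-Pearson 95% interval 56.2 to 65.5%) over the lactate cells and 36.9% (31.3 to 42.7%) over the lactate+AZD cells. Per cell it was 45.7, 74.3, 63.3, 65.7 and 46.5% in T11, T13, W5, W20 and F18, and 31.8, 54.5, 33.9, 36.2 and 29.5% in T10, W10, W14, F8 and F9. Of the lactate+AZD cells, W10 alone reached the range of the lactate cells. The cell names begin with T, W or F, letters that the labels do not explain, and within each letter every lactate+AZD cell had a lower share than every lactate cell. The immunoproteasome sum in CPM was likewise lower within T and W, whereas F8 lay above F18 within F. Each pair of counterparts showed the lower share with AZD3965: 58.1 against 81.0% for Psmb8 of Psmb8 and Psmb5, 15.0 against 37.2% for Psmb9 of Psmb9 and Psmb6, and 32.2 against 65.3% for Psmb10 of Psmb10 and Psmb7. Divided by exon length, the share was 23.8 against 50.5%. With any 1 cell left out, the difference of the shares stayed between -28.2 and -20.0 percentage points, and the ratio of the summed immunoproteasome genes between -1.10 and -0.88. Leaving out W14, where markers of other cell types stood at 77.9% of the macrophage markers, gave -23.3 points and -0.88.

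**Figure D2:**
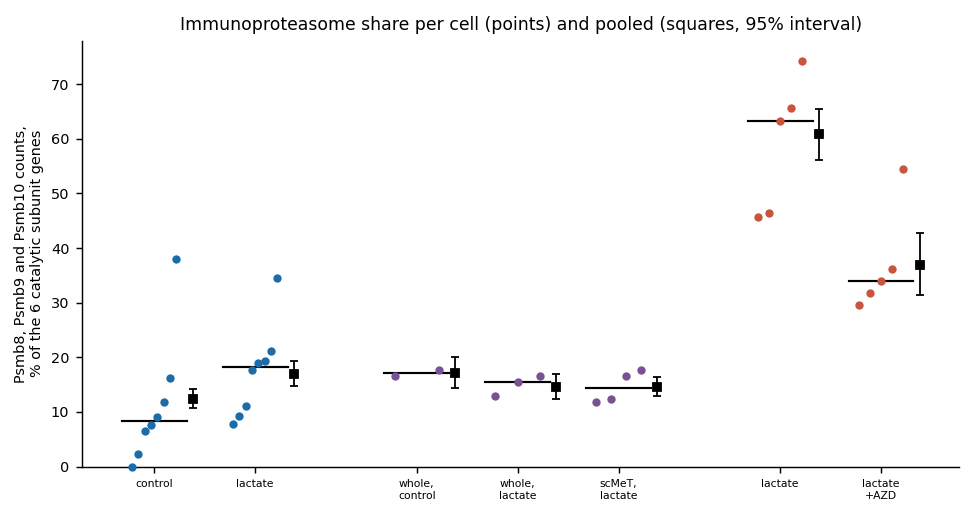
Counts of Psmb8, Psmb9 and Psmb10 as a percentage of the counts of the 6 catalytic subunit genes. Points are cells, lines are medians over cells and squares are pooled values with exact 95% intervals of counting error. The pooled share is 60.9% in the lactate cells and 36.9% in the lactate+AZD cells of the AZD3965 table, and 12.4 to 17.1% in the groups of the matrices, where Psmb10 is listed at 0.

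The activator genes that interferon induces along with the immunoproteasome did not share this difference. Psme1 stood at 113, 79.8, 89.9, 0 and 88.4 CPM in T11, T13, W5, W20 and F18 and at 113, 113, 49.5, 188 and 0 CPM in T10, W10, W14, F8 and F9. Its log2 ratio was 0.28 (-0.30 to 0.87) and that of Psme2 was 0.44 (-0.12 to 1.00), with overlapping cells in both cases. Psme1 was at -0.09 without W20 and Psme2 at 1.03 without T11. Psme3, the nuclear activator, was at 0, 62.7, 15.0, 37.0 and 0 CPM without and at 92.1, 93.5, 49.5, 0 and 33.2 CPM with AZD3965, a log2 ratio of 1.27 (0.44 to 2.15), or 2.12 without T13. Psme4, a large nuclear activator linked to the turnover of histones, had counts in 4 of 5 lactate cells (29 counts) and in 1 of 5 lactate+AZD cells (3 counts), a log2 ratio of -2.96 (-5.32 to -1.27). The inhibitor Psmf1 was at 0.10 (-0.87 to 1.05), and between -0.58 and 1.19 with T10 or W20 left out.

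Among the 19S genes, Psmd11, a lid subunit that joins the lid to the core, was at 1.07 (0.61 to 1.53) with AZD3965, and at 1.88 without T13. Its level was 31.4, 211, 37.5, 24.7 and 155 CPM without and 212, 40.1, 269, 51.3 and 365 CPM with AZD3965, so both groups held high and low cells. Psmd1, a scaffold of the 19S base (0.94, 0.49 to 1.39), and the ATPase Psmc6 (0.88, 0.35 to 1.41) followed. Psmc5, another ATPase (-0.79, -1.48 to -0.13), the alpha subunit Psma2 (-0.74, -1.31 to -0.19) and Psmd2, which docks ubiquitin shuttles (-0.61, -0.97 to -0.26), stood at the other end. Psmd2 had no count in W10 and F8 and its ratio was -1.50 without W14. Psmd8, the member with the most counts in this experiment, was at 0.18 (-0.06 to 0.42). Other members with many counts were close to 0, such as Psmb2 (-0.09, -0.48 to 0.30), Psma7 (0.16, -0.22 to 0.53), Psma1 (-0.23, -0.63 to 0.17) and Psmc3 (-0.24, -0.76 to 0.27), while Psmc1 was at 0.50 (0.05 to 0.95), or 1.10 without W5.

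The 7 assembly chaperones had sparse counts in these cells. Psmg1, which pairs with Psmg2 to order the alpha ring, had 20 counts in 3 of 5 lactate cells and none with AZD3965, at least 5.38-fold lower against a floor of 3 counts over the group. Psmd5 and Psmd10, chaperones of the 19S base, stood at 0.60 (-0.18 to 1.39) and 0.58 (-0.17 to 1.34), and W20 held 92.5% of the Psmd5 level of the lactate cells, without which the ratio was 3.99.

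The sum of all members was 4946 CPM with and 4629 CPM without AZD3965, a log2 ratio of 0.10 (0.02 to 0.17). This lay below the median of all 8764 genes with 10 counts or more, 0.17, and it was -0.07 under TMM scaling. The median of the 48 members tested was 0.14. A log2 ratio of at least 1 was reached by 4 members (Psmb5, Psmd11, Psme2b and Psme3) against 24.9% of all genes, and of at most -1 by 4 members (Psmb10, Psmb9, Psme4 and Psmg1) against 15.6%. Among genes with 100 counts or more the figures were 1 of 29 members against 8.85% and 0 of 29 against 4.24%. Under TMM scaling 1 member was past the line on the higher and 4 on the lower side. The 4 members on the lower side stayed past the line with any 1 cell left out and none of the 4 on the higher side did.

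**Figure D3:**
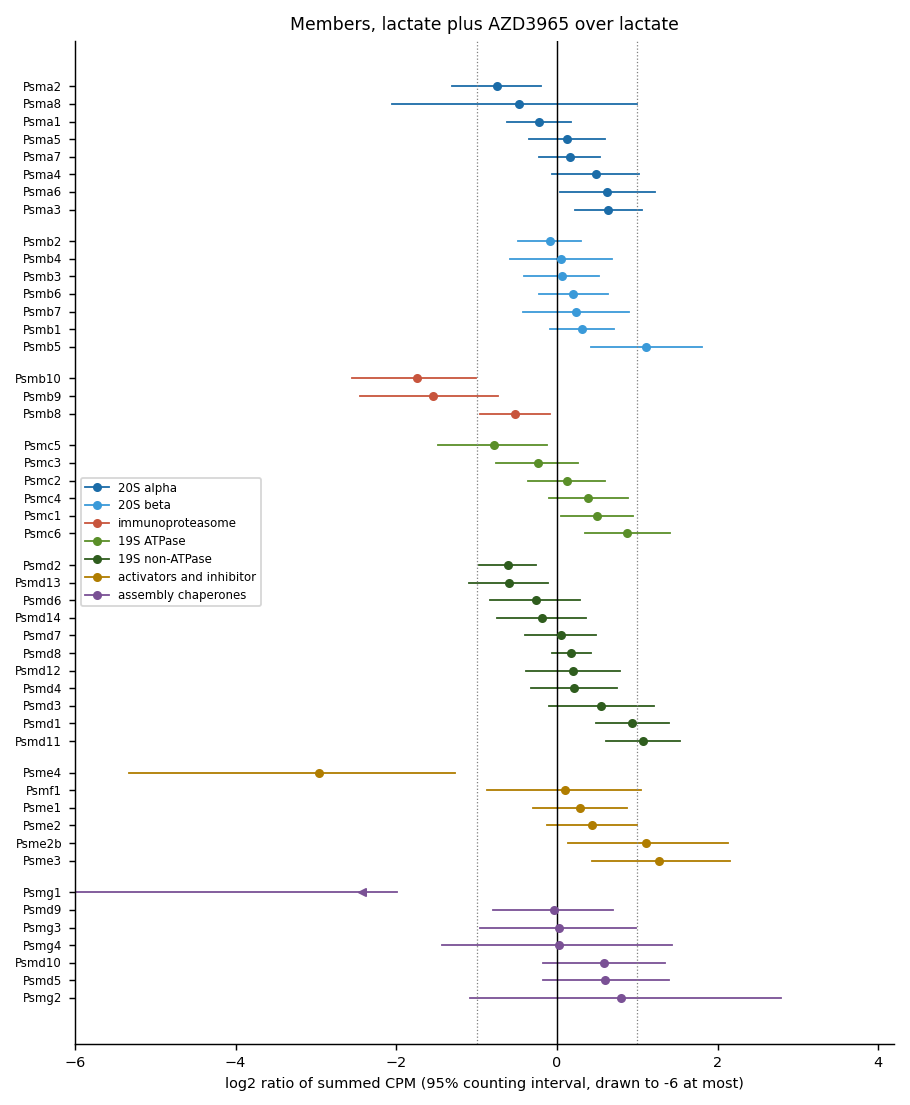
Log2 ratio of summed CPM, 5 lactate+AZD cells over 5 lactate cells, for the 48 members with 10 counts or more, by class. Bars are exact 95% intervals of counting error, the triangle marks Psmg1 at the floor of 3 counts, and dotted lines mark 2-fold. The 3 immunoproteasome genes lie to the left of 0, at -1.75, -1.55 and -0.52, and 6 of 7 beta subunits to the right.

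Genes of the interferon and antigen presentation pathways were listed as relatives of the immunoproteasome. The 10 genes of MHC class I peptide loading stood at 8890 CPM with and 10937 CPM without AZD3965, a log2 ratio of -0.30 (-0.35 to -0.25), with a median of -0.22 and no gene past the 2-fold line. H2-D1, a class I heavy chain, was at -0.55 (-0.62 to -0.47) and B2m, its light chain, at -0.07 (-0.17 to 0.02). Without W14, the cell with markers of other types, the sum was at -0.17, H2-D1 at -0.35 and B2m at 0.04. Tap1, whose window overlaps that of Psmb9, was at 0.41 (-0.74 to 1.57) and at -1.48 without W10. Of 8 interferon factors, 3 were past the line on the higher side (Ifngr2, Jak1 and Jak2) and 1 on the lower side (Nlrc5, an activator of class I genes, with 15 counts against 0). Irf1, which drives immunoproteasome genes after interferon, was at -0.84 (-1.73 to -0.01), or -1.69 without F8. Jak2 rests on 13 counts against 2, and Jak1 came within the line without W10, at 0.61. The median of the 8 was -0.53 and their sum 0.11 (-0.06 to 0.27), so the 2 measures differed in sign. For the other proteasome subunits and ubiquitin receptors the sum was 0.23 (0.10 to 0.37). Of these, the ubiquitin receptor Adrm1 was at 1.03 (0.47 to 1.62) and the shuttle Ubqln2 at 1.35 (0.48 to 2.28), and both were below 1 without 1 cell, at 0.74 without T13 and 0.95 without W14. The genes of the NRF1 axis, which induces proteasome genes when degradation is limiting, had a sum of 0.08 (-0.09 to 0.25). Of these, 0 of 8 were past the line. Ubiquitin genes with their activating enzymes had a sum of 0.38 (0.29 to 0.48). Among them Uba6 alone was past the line (1.90, -0.11 to 4.42), from 9 counts against 3, in 1 cell of each group. All of its counts with AZD3965 were in T10.

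With lactate alone, the summed proteasome genes were a little lower and each of the 7 measured 20S beta genes lay below 0. The comparison of 8 lactate and 8 control cells asks what lactate does to macrophages that have not seen AZD3965. The 49 members took 3757 CPM with lactate and 4347 CPM without, a log2 ratio of -0.21 (-0.25 to -0.17). Per cell the sum had a lowest value, median and highest value of 2981, 3572 and 5145 CPM with lactate and of 3998, 4329 and 5063 CPM in controls. The 2 groups overlapped, with Lactic30, Lactic31 and Lactic33 inside the range of the controls or above it. The ratio was -0.13 under TMM scaling and -0.15 without the 4 cells of this experiment with fibroblast or mesothelial markers.

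The summed beta subunits stood at 675 and 886 CPM, or -0.39 (-0.48 to -0.31), with 7 of 7 genes below 0. Psmb2 stood at 56.5, 121 and 193 CPM (lowest, median and highest cell) with lactate and at 58.8, 180.0 and 306 CPM in controls, a log2 ratio of -0.59 (-0.79 to -0.39). Psmb5 stood at 78.1, 127 and 191 CPM against 84.5, 183 and 273 CPM (-0.45, -0.64 to -0.26). Psmb6 stood at 71.8, 114 and 225 CPM against 64.5, 188 and 278 CPM (-0.34, -0.52 to -0.15). In each case the medians were apart and the cells overlapped. Psmb7 was at -0.14 (-0.52 to 0.23), or 0.08 without CTL28. The class ratio stayed between -0.45 and -0.33 with any 1 cell left out.

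The alpha subunits were at -0.21 (-0.29 to -0.12), with 7 of 8 below 0. Psma7 was at -0.53 (-0.70 to -0.36) and Psma1 at -0.09 (-0.30 to 0.12), whereas Psma6 was at 0.47 (0.26 to 0.69), or 0.20 without Lactic31. Without the cells with markers of other types the alpha class was at -0.05. The 19S ATPases were at -0.11 (-0.20 to -0.01) with 3 of 6 on each side of 0, among them Psmc1 at 0.11 (-0.10 to 0.33) and Psmc3 at -0.33 (-0.55 to -0.12), which turned to 0.03 without CTL28. Their ratio turned to 0.02 without CTL28, and likewise to 0.02 without the cells with markers of other types. The other 19S subunits were at -0.32 (-0.38 to -0.25), with 8 of 11 below 0.

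The ubiquitin receptor Psmd4 had the lowest ratio among these 19S genes, at -0.96 (-1.23 to -0.70). Its lowest, median and highest cells were at 30.4, 63.4 and 90.8 CPM with lactate and at 0, 116 and 205 CPM in controls, where CTL27 was the cell at 0. Psmd7, which pairs with the deubiquitinase Psmd14 in the lid, was at -0.87 (-1.07 to -0.67), or -0.56 without CTL27. Psmd8 stood at -0.58 (-0.76 to -0.40) and Psmd2 at -0.14 (-0.33 to 0.05). On the other side, Psmd3, a further lid subunit, was at 1.42 (1.08 to 1.77), but its level was 536 CPM in Lactic31 and at most 63.0 CPM in the other lactate cells, and the ratio was 0.36 without Lactic31.

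The assembly chaperones stood at 244 against 202 CPM or 0.27 (0.11 to 0.43), with a median of 0.79 over its 7 members. Psmg2 had counts in 5 of 8 lactate cells and 3 of 8 controls, from 48 counts against 12, a log2 ratio of 1.95 (1.02 to 3.00), or 2.54 without CTL32. Psmd5 was at 1.04 (0.76 to 1.34) and at 0.59 without Lactic31, the cell in which it reached 367 CPM. Psmg4 stood at 0.79 (0.04 to 1.58), Psmd10 at -0.61 (-0.90 to -0.32) and Psmg1 at -0.79 (-1.39 to -0.21), or -1.85 without Lactic27. Psmg3 was at 1.06, at 0.28 without Lactic27 and at 1.75 without CTL28. Without the cells with markers of other types the class was at 0.67. Among the activators, Psme3 was at 0.85 (0.50 to 1.21), 0.30 without Lactic31 and 1.79 without CTL30, and Psme4 at -0.97 (-1.34 to -0.61), or -2.09 without Lactic29. Psme1 (0.22, -0.05 to 0.48) and Psme2 (0.03, -0.18 to 0.24) had intervals on both sides of 0, and were at -0.09 without Lactic27 and -0.17 without CTL28.

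The immunoproteasome genes stood at 62.8 CPM with lactate and 56.1 CPM in controls, or 0.16 (-0.14 to 0.47), resting on Psmb9 and Psmb8. The ratio was 0.80 without CTL28 and -0.03 without the cells with markers of other types. Psmb9 stood at 26.9, 41.1 and 96.9 CPM in the lowest, median and highest lactate cells and at 0, 35.8 and 158 CPM in controls, where CTL31 and CTL32 were at 0 and CTL28 was highest. Without CTL28 its ratio was 0.91 in place of 0.14. The share of the 6 catalytic genes was 16.9% (14.8 to 19.2%) with lactate and 12.4% (10.7 to 14.3%) in controls, with per-cell medians of 18.3 and 8.37%. It ran from 7.74 to 34.5% over lactate cells and from 0% in CTL32 to 38.1% in CTL28 over controls, so the controls enclosed the lactate cells. The difference was 4.54 percentage points, 8.995 points without CTL28 and 3.33 points without the cells with markers of other types.

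**Figure D4:**
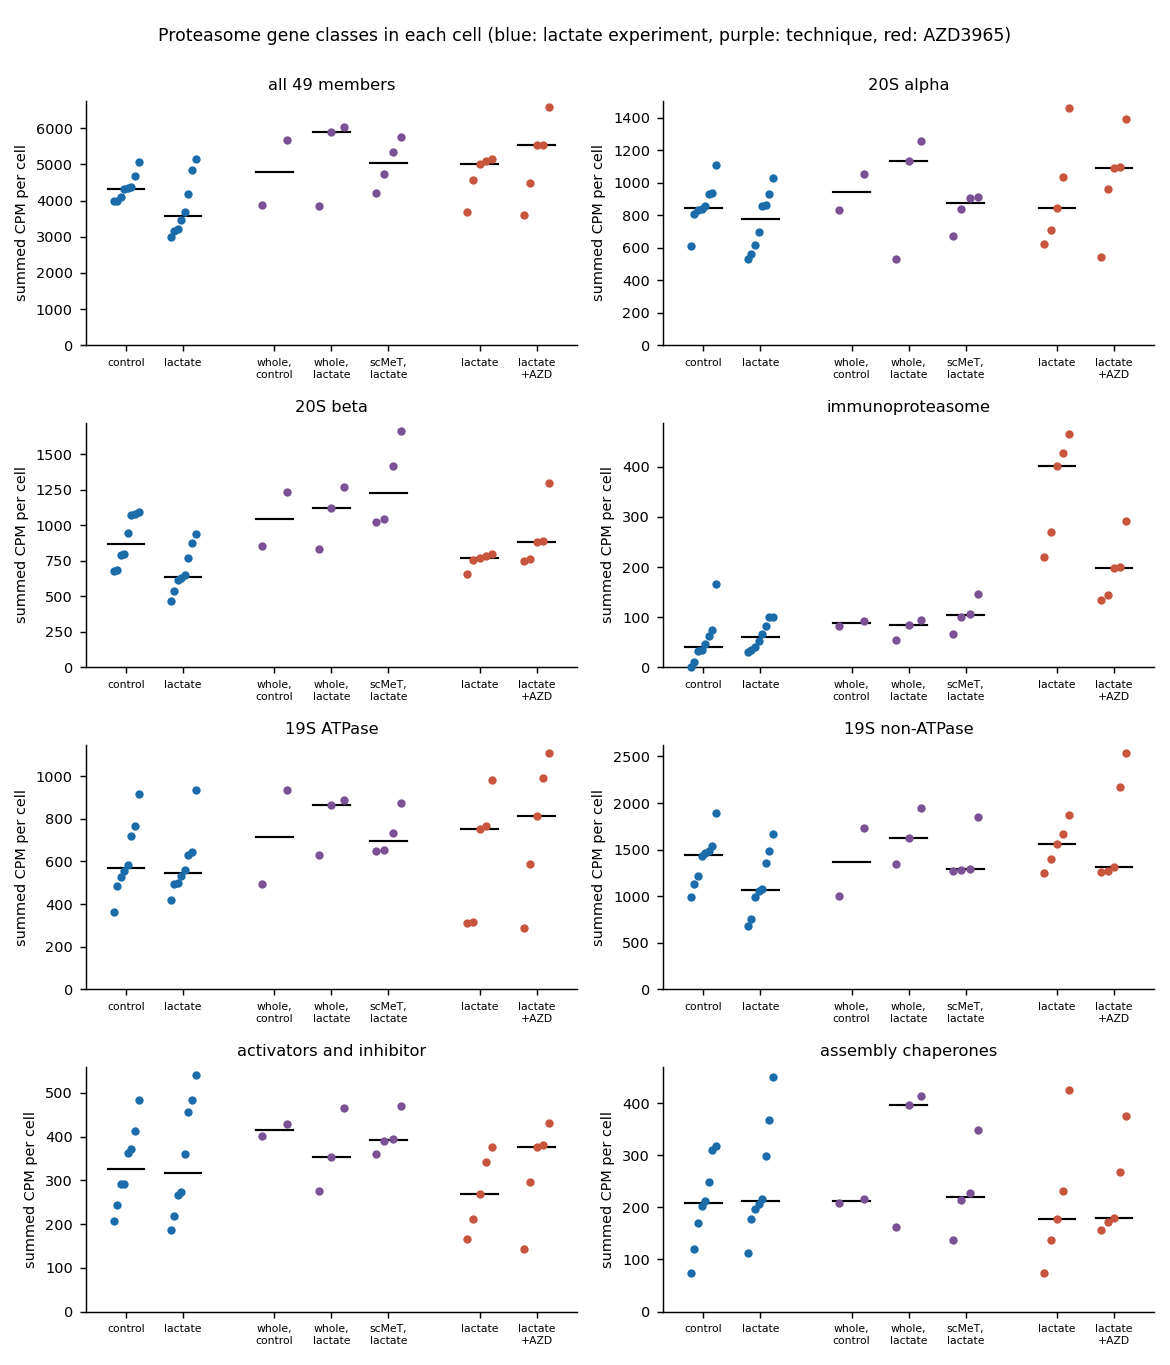
Summed CPM of all 49 members and of each class (8 panels) in each cell, by group. Points are cells and lines are medians, and each axis starts at 0. The immunoproteasome panel shows the lactate cells of the AZD3965 experiment between 221 and 465 CPM and the lactate+AZD cells between 134 and 291 CPM, and the 20S beta panel shows the lactate cells of the lactate experiment at a median of 639 CPM and the controls at 872 CPM.

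Of the 46 members with 10 counts or more, 29 were below 0 and 17 above. Their median was -0.23 and that of all 11506 genes -0.09. At least 2-fold higher were 4 members (Psmd3, Psmd5, Psmg2 and Psmg3) against 15.1% of all genes, and at least 2-fold lower was 1 member, Psma8, which rests on the cell CTL28, against 22%. Among genes with 100 counts or more, 2 of 41 members against 9.35% and 0 of 41 against 12.6% were past the line. Members past the line thus made up a smaller share than all genes did, in both directions and at both count limits. The sign of the ratio held with any 1 cell left out for 24 members below and 9 above 0 and turned for 13. The 24 include Psma8, whose sign cannot be judged without CTL28. The other controls were at 0 and the lactate cells had 1 count, so its ratio below 0 there came from the count floor alone.

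**Figure D5:**
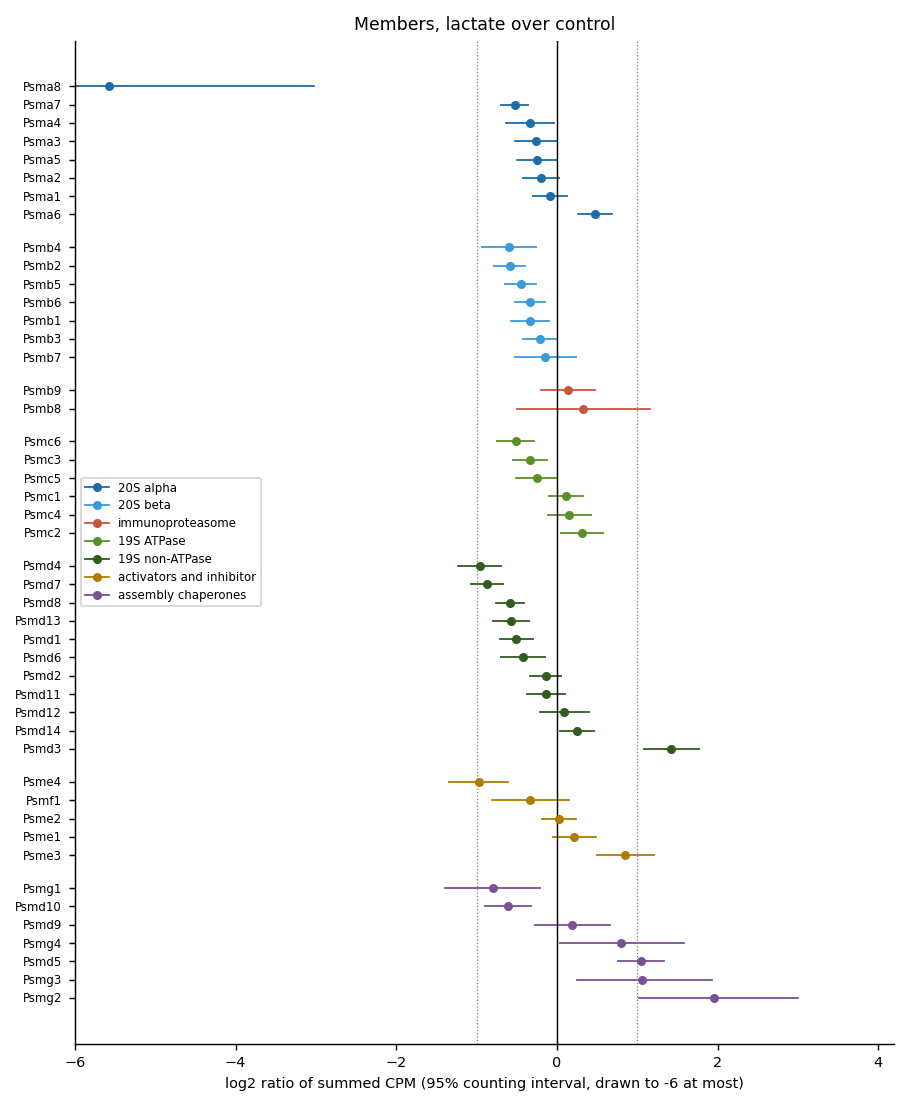
Log2 ratio of summed CPM, 8 lactate cells over 8 controls, for the 46 members with 10 counts or more, by class. Bars are exact 95% intervals of counting error, drawn to -6 at most, and dotted lines mark 2-fold. The 7 beta subunits lie to the left of 0, and Psma8 at -5.57 rests on 1 control cell.

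Among the relatives, the MHC class I loading genes were at 0.35 (0.32 to 0.38) with lactate, led by H2-K1 (0.59, 0.52 to 0.66) and H2-D1 (0.47, 0.44 to 0.51), while the chaperones Calr and Pdia3 were at -0.50 and -0.86. Without the cells with markers of other types the sum was at 0.14, H2-K1 at 0.51 and H2-D1 at 0.18, and without CTL32 alone H2-D1 was at 0.29. The median of the 9 measured genes was 0.11. Of 8 interferon factors, 2 were past the 2-fold line on the higher side, Irf1 (2.46, 1.72 to 3.27) and Irf8 (1.05, 0.88 to 1.22), and the median was 0.71. Irf8 was at 0.80 without the cells with markers of other types, and Irf1 at 3.25 without CTL30. Other proteasome subunits and ubiquitin receptors were at -0.31 (-0.38 to -0.24), with Usp14 and Uchl5, the deubiquitinases that bind the 19S particle, past the line on the lower side and Akirin2, which carries proteasomes into the nucleus, on the higher side, at 1.84 and at 3.50 without the cells with markers of other types. The NRF1 axis was at 0.38 (0.30 to 0.45), or 0.25 without the cells with markers of other types. Its largest part was Nfe2l2, at 542 of 1182 CPM with lactate. Nfe2l1, the gene of NRF1 itself, was at 0.51 (0.33 to 0.68). Its per-cell medians were 150 CPM with lactate and 157 CPM in controls, and its highest lactate cell stood at 597 CPM. Ngly1 and Mafk were past the line on the lower side, although Ngly1 turned to 0.39 without the cells with markers of other types. Ubiquitin genes were at -0.20 (-0.24 to -0.15).

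After scMeT-seq, the summed proteasome genes of lactate-treated cells differed little from whole cells. The comparison asks whether drawing off cytoplasm before lysis alters the transcripts kept. The 4 scMeT-seq cells stood at 4221, 5744, 5353 and 4720 CPM (Lactic13, Lactic14, Lactic16 and Lactic17) and the 3 whole cells at 3836, 5894 and 6022 CPM (Lactic5, Lactic6 and Lactic7). The scMeT-seq cells lay within the range of the whole cells. The log2 ratio of the sums was -0.11 (-0.15 to -0.07), and leaving out 1 cell moved it between -0.26 and -0.0030.

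Alpha subunits were lower in sum after scMeT-seq (-0.27, -0.37 to -0.18, 7 of 7 measured genes below 0). The beta class was higher in sum (0.22, 0.14 to 0.30) with 5 of 7 genes below 0, because Psmb6 and Psmb3 carried it. Per cell, the alpha sum was 675 to 911 CPM after scMeT-seq, inside the 532 to 1257 CPM of whole cells. The beta sums overlapped too, at 1023 to 1662 CPM against 831 to 1268 CPM. With 1 cell left out, the alpha ratio ran from -0.52 to -0.07 and the beta ratio from 0.07 to 0.36. Psmb6 was at 264, 356, 508 and 190.1 CPM after scMeT-seq and at 139.5, 235 and 149 CPM in whole cells, a log2 ratio of 0.87 (0.68 to 1.07). Psmb3 was at 0.80 (0.56 to 1.04). The assembly chaperones were at -0.52 (-0.69 to -0.35), with overlapping cells. Psmg4 was at 9.41, 0, 0 and 16.2 CPM after scMeT-seq and at 44.5, 35.9 and 31.5 CPM in whole cells, and its log2 ratio was -2.40 (-3.26 to -1.61). Psmd9 (-1.01), Psmd5 (-0.97), Psmc6 (-0.87) and Psmd12 (-0.79) followed on the lower side, and Psmf1 (1.54), Psmg1 (0.98) and Psme4 (0.93) led the higher side. Single cells moved these ratios, with Psmg4 at -3.43 and Psmd9 at -2.37 without Lactic17, Psmg1 at 2.13 without Lactic7 and Psme4 at 1.65 without Lactic6. Psme2 was at 0.52 (0.30 to 0.73) and Psme1 at -0.60 (-0.86 to -0.33).

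The immunoproteasome share was 14.6% in both groups, with intervals of 12.98 to 16.4% after scMeT-seq and 12.4 to 16.97% in whole cells. Psmb8 was at 4.71, 80.8, 21.5 and 8.84 CPM after scMeT-seq and at 16.2, 19.6 and 23.6 CPM in whole cells, so Lactic14 alone held 69.7% of its level, and its ratio of 0.39 turned to -0.81 without that cell. Psmb9 was at 61.2, 65.4, 79.4 and 97.3 CPM against 38.4, 65.3 and 70.8 CPM, a log2 ratio of 0.36 (0.01 to 0.72). Past the 2-fold line were 1 of 45 members on the higher side (Psmf1) against 21.7% of all genes and 4 on the lower side (Psmd9, Psme3, Psmg3 and Psmg4) against 20.6%. With 100 counts or more it was 1 of 40 against 13.6% and 1 of 40 against 11.5%.

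In whole cells, lactate gave the opposite sign for the sum, at 5357 CPM in the 3 lactate cells named above and 4595 CPM in 2 controls, a log2 ratio of 0.22 (0.18 to 0.27). The controls CTL4 and CTL8 stood at 3878 and 5684 CPM, inside the range of the lactate cells, and the ratio was -0.09 without CTL4 and 0.47 without CTL8. This comparison shares its lactate cells with that of the techniques. The 20S beta class was at 0.12 (0.02 to 0.22), with 4 of 7 genes above 0, and -0.18 without CTL4. The immunoproteasome share was 14.6% with lactate and 17.1% (14.4 to 20.1%) in controls.

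Of the single members, Psmd9, a chaperone of the 19S base, was at 58.6, 65.3 and 36.2 CPM with lactate and at 21.1 and 19.6 CPM in controls, a log2 ratio of 1.36 (0.75 to 2.02). Psmd2 was at 241, 277 and 283 CPM against 152 and 194 CPM (0.68, 0.45 to 0.91), and Psmd5 (1.12), Psmc2 (0.87) and Psmd8 (0.65) were on the same side. Without CTL4, Psmd5 was at 0.43 and Psmc2 at 0.15, and without CTL8 at 1.85 and 1.66. Of the members higher with lactate and not mostly from 1 cell, Psmd13 (0.04), Psmb2 (0.05), Psmc6 (0.11), Psmd7 (0.15) and Psmb1 (0.17) were lowest. With 2 control cells, members higher in controls could not pass the limit on 1 cell, however even they were. Of the 45 members, 15 lay below 0. Psme4 was at 22.2, 42.4 and 9.44 CPM with lactate and at 79.9 and 71.3 CPM in controls, a log2 ratio of -1.63 (-2.18 to -1.11), or -2.35 without Lactic6. TMM scaling shifted every ratio here by 0.19. Past the 2-fold line were 3 of 45 members on the higher side (Psmd5, Psmd9 and Psmg1) against 15.2% of all genes and 3 on the lower side (Psme4, Psmf1 and Psmg2) against 27.6%, which became 6 and 2 members under TMM scaling. With 100 counts or more it was 2 of 40 against 8.48% and 1 of 40 against 16.8%.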

How the data were processed

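Single macrophages were profiled by SMART-seq2, alone or after scMeT-seq, and each deposited sample is 1 cell. Per the labels and methods, the authors trimmed reads with fastp 0.20.0, aligned them to mm10 with HISAT2 2.1.0, counted with StringTie and clustered cells with Seurat 4.0. They deposited whole-number counts per gene, in cell-by-gene matrices for the lactate and technique experiments and as a table for the AZD3965 experiment. How the matrices and the table came to differ in gene set, and whether counting used strand, is not given in the sources used here.

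Counts were used as deposited and scaled to CPM over all genes of a cell. Groups came from the sample titles. Because no animal or culture is named and each group is 1 sample, comparisons rest on counts pooled per group, as log2 ratios of pooled CPM with 95% intervals from the exact binomial distribution of one count given both (Python 3.11.15, scipy 1.17.1, pandas 2.3.3, numpy 2.4.6). No p-value was computed. Genes with 10 counts or more in a comparison were read against a line of 2-fold, a group at 0 was set to a floor of 3 counts, and shares have exact Clopper-Pearson intervals, all for counting error only. The calculation was tested on simulated counts. Members named for their ratio had 50 counts or more, counts in at least 50% of the cells of their higher group and no more than 50% of its level in 1 cell, and the 5 highest and 5 lowest such members of each comparison were named, with the 2 members with the most counts in each class. In the whole-cell comparison the 2 control cells let no member that was higher in controls pass that limit, so its 5 lowest members there had ratios above 0. Members past the line and the immunoproteasome pairs were named too, and Psme1 and Psme2 for their role. Others given with values were singled out after their values were seen. The members, classes, marker lists and related lists were chosen with earlier results of these data known. Exon lengths and overlaps came from GENCODE M21 on GRCm38, and promoter windows from RefSeq on GRCm38.p6. Alternatives were TMM scaling (edgeR 4.0.16 in R 4.3.3, used for scaling factors only), means or medians over cells, count limits of 1 and 100, leaving out each cell, and leaving out the 5 cells with markers of other types. Figures were drawn with matplotlib 3.10.9. A few genes of the related lists are not reported here.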

Additional observations from a re-analysis of the deposited data

Results flagged for a closer look

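In groups of 4 to 8 cells, 7 of 45 combinations of a group and a summed quantity held a cell that stood apart by Dixon's 95% limit. About 1 in 20 would do so for independent and normally distributed values. The quantities share genes and some rest on sparse counts, so 7 of 45 cannot be read against that rate. The control CTL28 was high in the immunoproteasome genes, at 167 CPM against 0 to 73.7 CPM in the other controls, and in their share of the catalytic genes, at 38.1% against 0 to 16.2%. The lactate+AZD cell W10 was high in that share too, at 54.5% against 29.5 to 36.2% in the other lactate+AZD cells. For the 19S ATPases, Lactic30 stood at 934 CPM against 421 to 644 CPM in the other lactate cells. For the other 19S subunits, Lactic14 stood at 1845 CPM against 1269 to 1291 CPM in the other scMeT-seq cells of the technique experiment. For the 20S beta subunits, F8 stood at 1300.4 CPM against 749.6 to 892 CPM in the other lactate+AZD cells, and W5 at 659 CPM against 759 to 795 CPM in the other lactate cells of that experiment. The causes were not tested.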

How the results depend on the processing

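No paired analysis was possible because the replicate numbers in the labels only name cells, the letters T, W and F of the AZD3965 cells are not explained, and no result comes from a test. The lower immunoproteasome sum and share with AZD3965 kept their direction and stayed within the counting interval under every alternative run for them. The summed members with lactate were at -0.28 by medians over cells, -0.13 with TMM scaling, -0.15 without the cells with markers of other types and -0.27 to -0.16 with 1 cell left out. With AZD3965 the sum was -0.067 under TMM scaling and 0.0037 to 0.23 with 1 cell left out, lowest without T13 and highest without W10. For scMeT-seq it was -0.068 by means, -0.23 by medians and -0.26 to -0.0030 with 1 cell left out. For whole cells it was 0.14 by means, 0.30 by medians, 0.41 with TMM scaling and -0.086 (without CTL4) to 0.47 (without CTL8). The difference in immunoproteasome share with lactate was 9.93 percentage points by medians and 2.47 to 8.995 points with 1 cell left out, highest without CTL28. Members past the 2-fold line numbered 5 with lactate and 2 at 100 counts or more. With AZD3965 they numbered 8, 5 under TMM scaling and 1 at 100 counts. For scMeT-seq they numbered 5, 2 at 100 counts and 6 to 12 with 1 cell left out (12 without Lactic17). For whole cells they numbered 6, 3 at 100 counts and 6 to 13 with 1 cell left out (13 without CTL8). The 19S ATPase sum with lactate turned to 0.015 without the cells with markers of other types and ranged from -0.22 to 0.016 (without CTL28) with 1 cell left out. In whole cells the class sums ranged from -0.078 to 0.38 for alpha, -0.18 to 0.35 for beta, -0.21 to 0.71 for ATPases and -0.056 to 0.74 for the other 19S subunits, with CTL4 or Lactic6 deciding the sign. Why these values moved was not tested. Leaving out cells was also tried for the related lists and genes, which was chosen after seeing the data, and Ngly1 with lactate turned to 0.39 without the cells with markers of other types. For the summed members, immunoproteasome share and members past the line, 121 alternatives stayed within the counting interval or within 1.5 times a count. Another 33 moved and 2 turned. Of the other alternatives, 745 stayed, 184 moved and 9 turned. A value was called turned only where both ends of the main interval had the same sign. Further changes of sign are therefore among those that stayed or moved. The AZD3965 table was the shallowest, and members under 30 counts there have wide intervals.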
